A study of Mus musculus with 12 samples.

Results

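The 50 genes described here build and run the protein entry and folding line of the endoplasmic reticulum (ER). They were taken by gene symbol from the 23282 rows of the deposited count table, and all 50 had a row. By role they comprise 9 translocon genes, 6 genes of the signal recognition particle (SRP) and its receptor, 5 signal peptidase genes and 9 oligosaccharyltransferase genes. The remaining members are 15 chaperone and folding genes, 4 genes of ER-associated degradation and 2 stress sensors. Of the 50, 49 had enough reads to be tested, and the exception was the sensor Ern1.

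Transcripts were measured in splenic B cells in 4 groups of 3 libraries each. The ODN+IM156 group received both agents, the ODN group only the oligodeoxynucleotide, the IM156 group only IM156, and the control group neither. ODN is the class B CpG-ODN 1826, a synthetic DNA that activates the endosomal receptor TLR9, and 50 µg was injected into the peritoneum on days 1 and 3. IM156, an inhibitor of oxidative phosphorylation per the series title, was given by the same route at 30 mg/kg, on day 0 and again on day 2, and spleens were collected on day 4. All mice were wild-type C57BL/6 aged 7 weeks per the sample labels, whereas the series text calls them lupus-prone. The labels name no vehicle for the control mice, no way of isolating the B cells, no sex and no number of animals per library. The p-values below thus reflect how far libraries of a group differ, which may in part be technical.

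Most proteins bound for the cell surface or for secretion enter the ER while they are being made. SRP brings the ribosome to the membrane, the Sec61 channel and its partners pass the chain through, signal peptidase cuts off the leader, and oligosaccharyltransferase attaches N-glycans. Chaperones and disulfide isomerases then fold the chain, and misfolded chains are sent back to the cytosol for degradation. When folding falls behind, the sensors Atf6, Ern1 and Eif2ak3 start the unfolded protein response, whose transcription arm raises chaperone genes. B cells are known to enlarge this line as they become antibody-secreting plasma cells.

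The libraries held 9650775 to 11532525 counts, of which the 50 genes took 0.704% to 0.791%. In ODN replicate 3 Xist, the transcript that coats an inactive X, had 1 count, against 9701 to 13011 in the other 11 libraries, and Rn45s, a ribosomal RNA row, took 1.46% of the counts of ODN replicate 2 against 4.78% to 9.63% elsewhere. Summed levels of 17 B-cell identity genes lay between 13920 and 16710 CPM (counts scaled to a fixed library size) over all 12 libraries, so the labelled cell type was matched by its markers. The lowest count of a tested member in any library was 109.

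In B cells of ODN-treated mice, 4 of the 9 translocon genes, 1 of the 5 signal peptidase genes and the folding gene Manf rose, whereas the main chaperones did not pass the test. Of the 49 tested members, 6 were called higher and 0 lower in ODN than in control, at a Benjamini-Hochberg adjusted p below 0.05 in edgeR's quasi-likelihood test. Across all 11857 genes tested, 7.34% were called higher and 3.25% lower. The 6 were Ssr4, Sec61g, Sec61b, Ssr3, Spcs1 and Manf, with increases from 1.57-fold for Ssr4 to 1.31-fold for Manf. The median log2 fold change of the 49 members was 0.14, against -0.005 over all genes, and 35 members had a positive value, against 49.2% of all genes. At an unadjusted p below 0.05 there were 15 members, against 25.2% of all genes. In bulk libraries, more cells with a high level and more RNA per cell cannot be told apart.

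Sec61g encodes the gamma subunit of the channel and lies on GRCm38 chromosome 11, at 16500530 to 16508484 on the minus strand. Its level was 258, 230 and 184 CPM in the ODN libraries, against 143, 153 and 138 CPM in the control libraries. Every ODN library was above every control library, and the lowest ODN value came from replicate 3. The log2 fold change was 0.63 (SE 0.11, adjusted p = 0.000822). Sec61b, the beta subunit (chromosome 4, 47474658 to 47483242, plus strand), had 140, 159 and 120 CPM in ODN, against 105, 96.7 and 84.6 CPM in control. These groups did not overlap either, and the log2 fold change was 0.55 (SE 0.10, adjusted p = 0.00158). Sec61a1, which forms the pore itself, had 164, 187 and 149 CPM in ODN, against 151, 136 and 148 CPM in control. The groups overlapped, and its log2 fold change of 0.20 (SE 0.093) did not pass (adjusted p = 0.181).

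The Ssr genes encode the TRAP complex, which sits beside the channel and assists the entry of some chains. Ssr4 (chromosome X, 73787028 to 73790830, plus strand) had 232, 203 and 180 CPM in ODN, against 142, 136 and 112 CPM in control. Its groups were fully separate, with a log2 fold change of 0.65 (SE 0.11, adjusted p = 0.001). Ssr3 (chromosome 3, 65379655 to 65392623, minus strand) had 123, 107 and 86.8 CPM in ODN, against 82.7, 72.1 and 85.4 CPM in control. Here the groups nearly met, since ODN replicate 3 stood just above control replicate 3. The log2 fold change was 0.40 (SE 0.11, adjusted p = 0.0288). Ssr2 had a log2 fold change of 0.33 (adjusted p = 0.094) and Ssr1 one of -0.02 (adjusted p = 0.93), so 2 of the 4 TRAP genes were called. Sec62 and Sec63, which encode the partners used for entry after translation, had log2 fold changes of -0.15 and -0.08 and were not called.

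Signal peptidase has 5 genes here. Spcs1, a small non-catalytic subunit (chromosome 14, 30999826 to 31001672, minus strand), had 94.8, 104 and 87.1 CPM in ODN, against 61.9, 80.0 and 72.3 CPM in control. The groups did not overlap, and the log2 fold change was 0.42 (SE 0.11, adjusted p = 0.017). The catalytic subunits Sec11c and Sec11a had log2 fold changes of 0.26 and 0.20, and the accessory subunits Spcs2 and Spcs3 had 0.21 and 0.20. None of these 4 passed, with adjusted p-values from 0.0832 to 0.254, although all 5 values were positive.

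Manf, a small ER-resident protein induced by ER stress, was the 1 called gene among the 15 chaperones and folding enzymes. It had 125, 120 and 107 CPM in ODN, against 98.2, 88.0 and 83.0 CPM in control, again without overlap. The log2 fold change was 0.39 (SE 0.098, adjusted p = 0.0147). The Manf locus (chromosome 9, 106838312 to 106891979, minus strand) shares 146 bases of its last 500 exonic bases with Dcaf1 on the opposite strand. Because no strand rule of the counting is stated, reads in that stretch cannot be told apart.

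**Figure D1:**
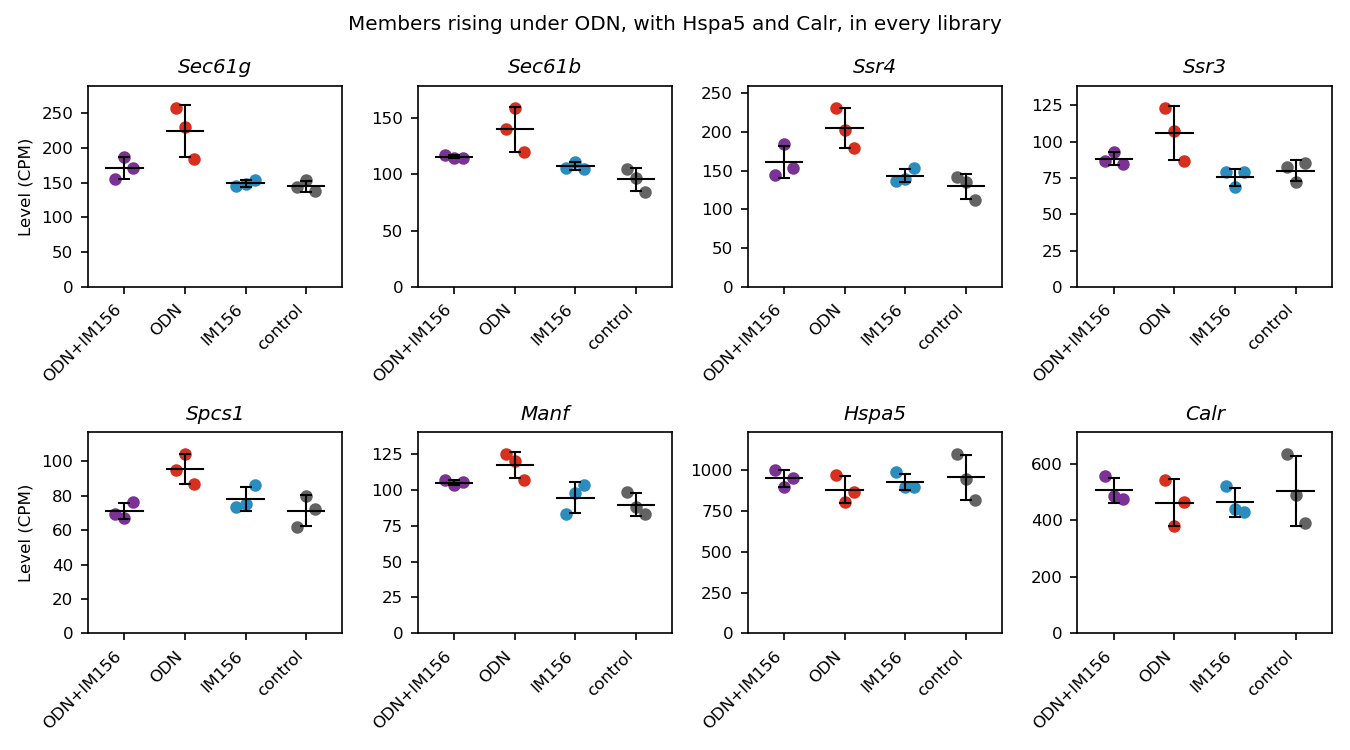
Level in CPM (vertical axes, starting at 0) of the 6 called members and of Hspa5 and Calr in each of the 12 libraries, by group. Points are libraries, the horizontal line is the group mean and the bar is the SD of 3 libraries. In the 6 called members every ODN point lies above every control point, whereas Hspa5 and Calr overlap.

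The defining chaperones had overlapping groups. Hspa5 encodes BiP, the main ER Hsp70, and had 967, 806 and 869 CPM in ODN, against 1099, 948 and 820 CPM in control. Its log2 fold change was -0.12, with a 95% interval from -0.36 to 0.12 (adjusted p = 0.514). Hsp90b1, the ER Hsp90, had 705, 542 and 574 CPM in ODN, against 732, 606 and 527 CPM in control (log2 fold change -0.03, adjusted p = 0.885). Calr, the glycoprotein chaperone calreticulin, had 545, 381 and 464 CPM in ODN, against 635, 492 and 389 CPM in control (log2 fold change -0.13, adjusted p = 0.641). In all 3 genes the highest of the 6 values belonged to control replicate 1, and without that library the log2 fold changes of Hsp90b1 and Calr were 0.10 and 0.073.

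Dnajb9, a co-chaperone of BiP, was low throughout, with 11.4, 12.8 and 11.9 CPM in ODN, against 14.7, 13.0 and 13.4 CPM in control. All ODN values were below all control values, yet the log2 fold change of -0.19 (SE 0.16) did not pass (adjusted p = 0.489). The remaining folding genes had log2 fold changes from -0.20 for Hyou1 to 0.30 for Creld2, with no other call among the 15. Over all 49 members, 13 had every ODN library above every control library and 2 every ODN library below, against 13.2% and 11.3% of all genes. The pair below comprised Dnajb9 and Syvn1, the ubiquitin ligase of ER-associated degradation.

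Among the stress sensors, Atf6 had 104, 78.1 and 74.9 CPM in ODN, against 73.0, 68.8 and 68.3 CPM in control. ODN replicate 1 was far above the other 5 values, and the log2 fold change of 0.29 (SE 0.12) did not pass (adjusted p = 0.124). Ern1, which encodes the sensor IRE1, had at most 1.42 CPM in any library and was not tested. Of the degradation genes, Herpud1 had 147, 169 and 156 CPM in ODN, against 163, 180 and 182 CPM in control. Its groups overlapped, and the log2 fold change was -0.15 (adjusted p = 0.268). The 4 degradation genes had a median log2 fold change of -0.16, the 6 SRP genes 0.09 and the 9 oligosaccharyltransferase genes 0.15, with no call in any of these 3 groups.

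**Figure D2:**
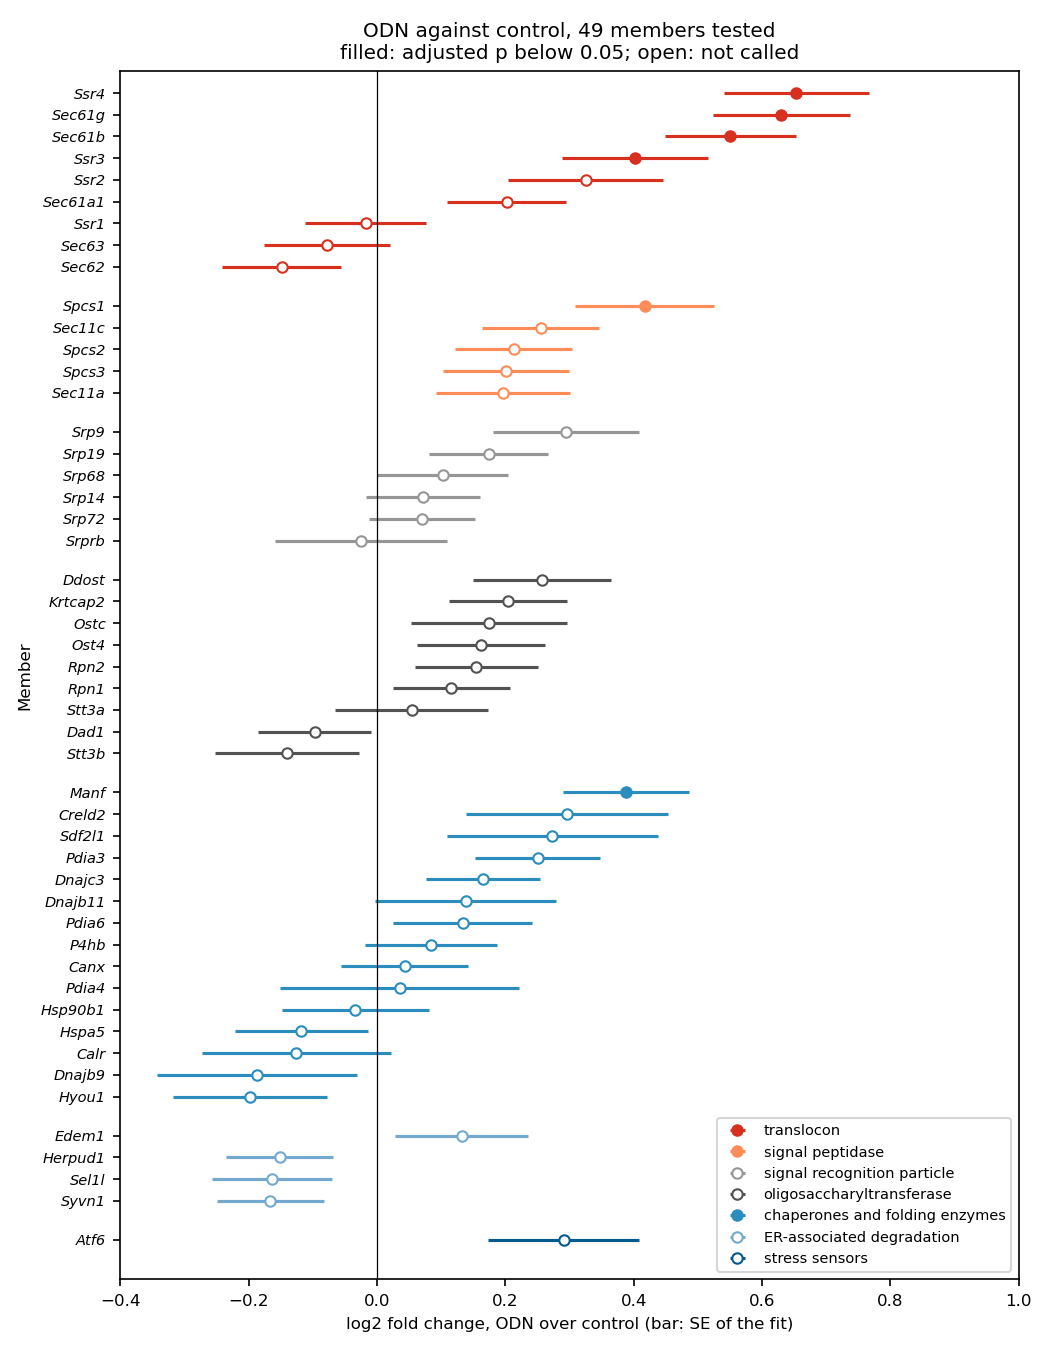
Log2 fold change of ODN over control (horizontal axis) for the 49 tested members, grouped by role, with the SE of the fit as a bar. Filled points passed the adjusted p of 0.05 (4 translocon genes, Spcs1 and Manf), and open points did not.

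Leaving out single libraries changed how many members were called. Without ODN replicate 3, the library with 1 Xist count, 10 members were called higher, against 9.45% of all genes, with Ssr2, Srp9, Krtcap2 and Atf6 (adjusted p = 0.0425) added to the 6. Without ODN replicate 1 there were 4, against 4.88% of all genes, with Ssr3 and Manf lost. Sec61b, Sec61g and Ssr4 were called in all 14 alternative settings. Ssr3 was lost in 5 of them (adjusted p up to 0.158), among them the removal of control replicate 2 and of either ODN replicate 1 or 2. Spcs1 was lost in 5 (adjusted p up to 0.0917), among them without control replicate 1 or ODN replicate 2. Manf was lost in 4 (adjusted p up to 0.0795), among them without control replicate 2, control replicate 3 or ODN replicate 1.

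The translocon and signal peptidase genes were then set against the chaperone, folding and sensor genes. In ODN against control, 5 of 14 of the first class were called higher, with a median log2 fold change of 0.23. In the second class 1 of the 16 tested genes was called higher, with a median of 0.11. Of all genes 7.34% were called higher, so the 1 call in the second class was near that share. The difference of the medians was 0.13. Computed per library against the control mean, it was 0.10, 0.23 and 0.12 in ODN, against -0.087, 0.046 and 0.11 in control. These ranges overlapped, because control replicate 3 had a higher difference than ODN replicate 1. Since the members were chosen with results known, no p is given for this class difference.

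**Figure D3:**
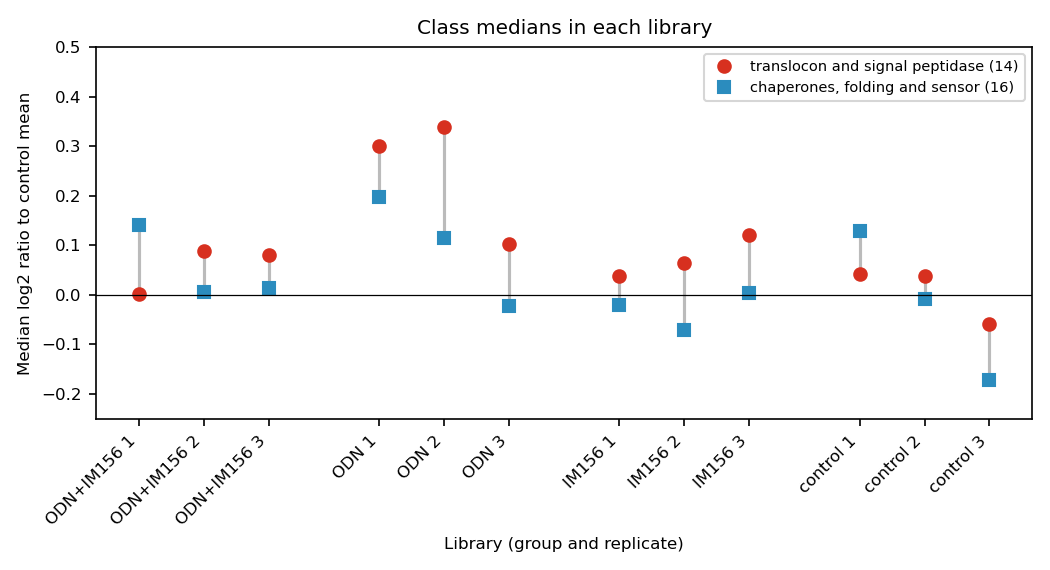
Median log2 level of the 14 translocon and signal peptidase genes and of the 16 chaperone, folding and sensor genes in each library, relative to the control mean of each gene. In the ODN libraries the first class lay at 0.30, 0.34 and 0.10 and the second at 0.20, 0.11 and -0.02.

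The members called higher were all small, while other small members such as Ssr2, Spcs3, Sec11a and Sec11c were not called. Lengths of the main coding isoform in GENCODE were 68 residues for Sec61g, 96 for Sec61b, 102 for Spcs1, 172 for Ssr4, 179 for Manf and 185 for Ssr3, against 476 for Sec61a1. Across the 49 members, the ODN log2 fold change and coding length had a Pearson r of -0.547 and a Spearman rho of -0.574. Within the 14 translocon and signal peptidase genes r was -0.81, and within the 16 chaperone, folding and sensor genes it was -0.425. In the separate ODN libraries r was -0.378, -0.578 and -0.461. These values run across genes that share the same libraries, and genes are not independent replicates.

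A limit of 200 residues, chosen after the values were seen, leaves 17 smaller members with 6 calls and a median log2 fold change of 0.26. The 32 larger members had 0 calls and a median of 0.062. The limit lies above the longest called member, Ssr3 with 185 residues, so where it was placed fixed the split of calls. Of all genes, 7.34% were called higher, and the share among small genes in general was not examined. With transcript length in place of coding length, r over the members was -0.43, against -0.127 over the 11375 genes that had a transcript length. Coding length and fold change were also related in ODN+IM156 against ODN, where r was 0.697 over the 49 members. In IM156 against control r was -0.464, and in ODN+IM156 against control it was -0.0431. These comparisons share groups of libraries and are not independent of each other.

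**Figure D4:**
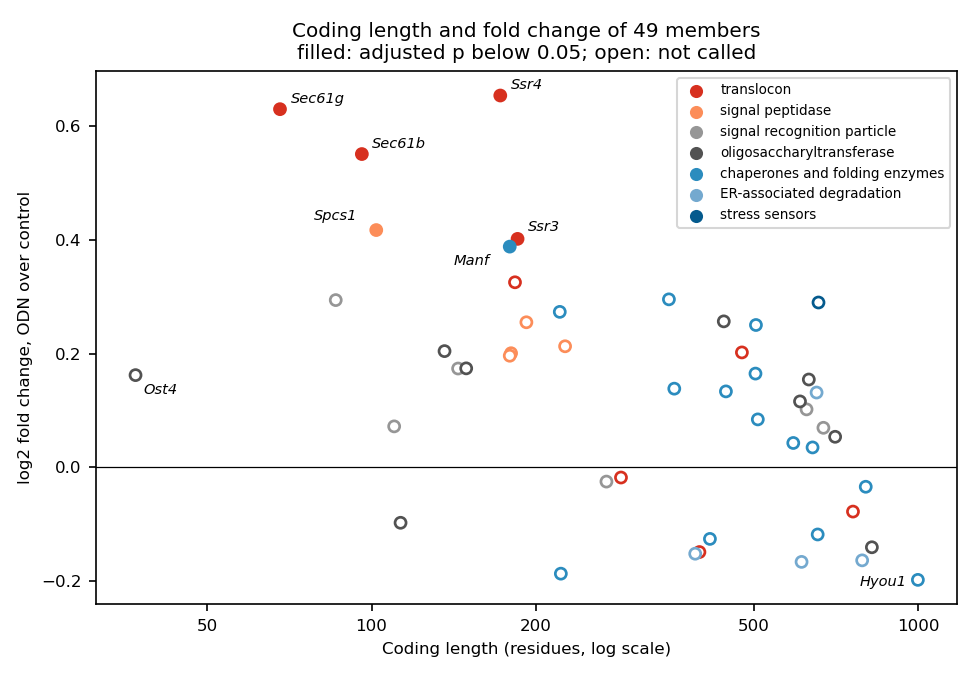
Coding length in residues (horizontal axis, logarithmic) against the log2 fold change (vertical axis) of the 49 members, coloured by class. In ODN against control the 6 called members lie between 68 and 185 residues.

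IM156 alone left the 49 members without a call. In IM156 against control, edgeR and DESeq2 each called 0 of the 49, with 0% of all genes called by edgeR and 0.0169% by DESeq2. At an unadjusted p below 0.05 the member count was 1, against 3.7% of all genes. That gene was Krtcap2, an oligosaccharyltransferase subunit, with a log2 fold change of 0.21 (SE 0.092, adjusted p = 0.999). Groups were apart for 4 members higher and 1 lower, against 5.16% and 5.25% of all genes. The medians were 0.06 for the translocon and signal peptidase genes and -0.03 for the chaperone, folding and sensor genes, a difference of 0.087. Sec61g had 145, 148 and 154 CPM in IM156, within the range seen in control but for 1 library. Hspa5 had 986, 898 and 897 CPM in IM156, all within the control range.

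When IM156 was added to ODN, no member was called in edgeR's test. In ODN+IM156 against ODN, 0 of 49 members passed, with 0.0675% of all genes called, 0.0506% higher and 0.0169% lower. At an unadjusted p below 0.05 there were 10 members, against 16.2% of all genes. Of these, 8 were among the 14 translocon and signal peptidase genes and 0 among the 16 chaperone, folding and sensor genes. Sec61g had 156, 187 and 171 CPM in ODN+IM156, against 258, 230 and 184 CPM in ODN. The groups overlapped by the lowest ODN library, replicate 3, and the log2 fold change was -0.39 (SE 0.11, adjusted p = 0.0783). Spcs1 had 69.5, 67.3 and 76.3 CPM in ODN+IM156, against 94.8, 104 and 87.1 CPM in ODN. Its groups did not overlap, and the log2 fold change was -0.42 (SE 0.11, adjusted p = 0.0648).

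Ssr4 had 145, 185 and 154 CPM in ODN+IM156, against 232, 203 and 180 CPM in ODN, with a log2 fold change of -0.35 (adjusted p = 0.132). Sec61b had 117, 115 and 115 CPM in ODN+IM156, against 140, 159 and 120 CPM in ODN, without overlap (log2 fold change -0.28, adjusted p = 0.179). In all, 9 members had every ODN+IM156 library below every ODN library and 1 every library above, against 10% and 9.07% of all genes. DESeq2 called 2 members lower, Sec61g and Spcs1, against 1.94% of all genes. Without ODN replicate 3, edgeR called 7 members lower: Sec61b, Sec61g, Ssr3, Ssr4, Srp9, Spcs1 and Sec11a. In that setting 4.36% of all genes were called lower, or 527 of 12083, against 2 of 11857 with all libraries, so calls rose far beyond the members.

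The class medians in ODN+IM156 against ODN were -0.26 for the translocon and signal peptidase genes and -0.007 for the chaperone, folding and sensor genes. Their difference was -0.25. Per library, relative to the ODN mean, the class difference was -0.32, -0.13 and -0.19 in ODN+IM156, against -0.077, 0.0052 and -0.035 in ODN, so the ranges did not overlap. Hspa5 had 1004, 898 and 950 CPM in ODN+IM156, against 967, 806 and 869 CPM in ODN, a log2 fold change of 0.11 (adjusted p = 0.657). Calr had 559, 485 and 476 CPM in ODN+IM156, against 545, 381 and 464 CPM in ODN (log2 fold change 0.13, adjusted p = 0.727). Both chaperones overlapped between the groups.

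The interaction asked whether the change with IM156 differed in the presence and absence of ODN. In edgeR's test 0 of 49 members passed, with 0% of all genes called. There were 11 members at an unadjusted p below 0.05, against 12.3% of all genes. The smallest p was that of Spcs1, with an interaction of -0.56 on the log2 scale (SE 0.15, adjusted p = 0.154), and DESeq2 called that gene alone among the members, against 1.27% of all genes. Without ODN replicate 3, edgeR called 3 members, Sec61b, Sec61g and Spcs1, against 2.15% of all genes.

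With both agents against neither, no member passed the test. In ODN+IM156 against control, edgeR and DESeq2 each called 0 of 49 members. Of all genes, edgeR called 1.59%, 1.25% higher and 0.337% lower, and DESeq2 called 2.73%. At an unadjusted p below 0.05 there were 7 members, against 12.9% of all genes. Ssr4 had a log2 fold change of 0.31 (SE 0.11, adjusted p = 0.227), Sec61b 0.27 (SE 0.10, adjusted p = 0.238) and Sec61g 0.24 (SE 0.11, adjusted p = 0.339), each with non-overlapping groups. Groups were apart for 7 members higher and 2 lower, against 10.2% and 9.12% of all genes. Spcs1 stood at -0.008 (SE 0.11). The largest fold change was that of Creld2, a folding factor with disulfide isomerase activity, which had 20, 19.0 and 20.1 CPM in ODN+IM156, against 14.4, 13.0 and 16.4 CPM in control. Its groups were separate, with a log2 fold change of 0.44 (SE 0.16), but it did not pass (adjusted p = 0.211). The class medians were 0.023 for the translocon and signal peptidase genes and 0.056 for the chaperone, folding and sensor genes, a difference of -0.033. Per library, the class difference was -0.14, 0.082 and 0.066 in ODN+IM156, against -0.087, 0.046 and 0.11 in control, with overlap.

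In ODN+IM156 against IM156, edgeR and DESeq2 each called 0 of 49 members. Of all genes, edgeR called 2.47%, 1.74% higher and 0.734% lower, and DESeq2 called 3.69%. At an unadjusted p below 0.05 there were 3 members, against 14.4% of all genes. Groups were apart for 6 members higher and 8 lower, against 12.8% and 11.8% of all genes. The 3 were Ost4, a small oligosaccharyltransferase subunit, at -0.26 (adjusted p = 0.203), the disulfide isomerase Pdia3 at 0.26 (adjusted p = 0.19) and Creld2 at 0.37 (adjusted p = 0.276). Ost4 and Pdia3 were called when the fit held only these 2 groups, a setting that called 7.76% of all genes. Ost4 shares 295 of its last 500 exonic bases with Agbl5 on the opposite strand. In ODN+IM156 against IM156 the class medians were -0.036 for the translocon and signal peptidase genes and 0.096 for the chaperone, folding and sensor genes. Their difference of -0.13 had the opposite sign to that in ODN against control. Per library, relative to the IM156 mean, it was -0.24, 0.017 and -0.065 in ODN+IM156, against -0.021, -0.004 and 0.00575 in IM156. These ranges overlapped.

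The wider pathway was represented by 113 further symbols, of which 103 were in the table and 98 were tested. In ODN against control, 2 of the 98 rose and 2 fell, against 7.34% and 3.25% of all genes, so the list was not called more often than the rest. The 2 that rose, both targeting and insertion factors, were Emc9, a subunit of the ER membrane complex, with a log2 fold change of 0.32 (adjusted p = 0.0386), and Tram1, a partner of the Sec61 channel, with 0.28 (adjusted p = 0.042). The 2 that fell were Eif2ak3, the sensor PERK, with -0.38 (adjusted p = 0.022), and Atf4, a transcription factor downstream of it, with -0.35 (adjusted p = 0.0349). The median of the 98 genes was -0.008. Emc9 had 156, 124 and 161 CPM in ODN, against 126, 115 and 112 CPM in control, and these groups overlapped by 1 library. Tram1 had 248, 237 and 209 CPM in ODN, against 186, 201 and 186 CPM in control. Eif2ak3 had 55.1, 62.9 and 58.5 CPM in ODN, against 69.5, 74.1 and 87.0 CPM in control. Atf4 had 344, 409 and 426 CPM in ODN, against 530, 540 and 437 CPM in control. Tram1, Eif2ak3 and Atf4 had no overlap. Of the 14 alternative settings, Emc9 was lost in 7, Tram1 in 9, Eif2ak3 in 3 and Atf4 in 5. Single libraries whose removal ended a call were control replicates 2 and 3 and ODN replicates 1 and 3 for Emc9, any of the 6 but ODN replicate 3 for Tram1, control replicate 3 and ODN replicate 1 for Eif2ak3, and control replicates 1 and 2 and ODN replicate 1 for Atf4. Xbp1, the transcription factor activated by Ern1, had 79.5, 79.9 and 74.3 CPM in ODN, against 84.1, 74 and 60.0 CPM in control, with overlap and no call (log2 fold change 0.10, adjusted p = 0.648).

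Eif2ak3 and Emc9 were also called with both agents present. Eif2ak3 had 51.6, 47.5 and 53.9 CPM in ODN+IM156, against 69.5, 74.1 and 87.0 CPM in control. All 3 values with both agents were below all control values, and the log2 fold change was -0.59 (SE 0.10, adjusted p = 0.00346). Emc9 had 166, 171 and 170 CPM in ODN+IM156, against 126, 115 and 112 CPM in control, again without overlap (log2 fold change 0.52, SE 0.096, adjusted p = 0.00502). Both calls held in all 14 alternative settings. Against IM156, Emc9 had a log2 fold change of 0.59 (adjusted p = 0.00132) and Eif2ak3 one of -0.53 (adjusted p = 0.00876). The call of Eif2ak3 against IM156 was lost without IM156 replicate 1, IM156 replicate 2 or ODN+IM156 replicate 2 (adjusted p up to 0.0621). These were the only calls of edgeR's test among the 98 genes in ODN+IM156 against control and against IM156. In each comparison 1 of the 98 was higher and 1 lower, against 1.59% and 2.47% of all genes called in either direction. The list was thus called at near the share of all genes.

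Promoter sequences were examined because chaperone genes are known targets of the unfolded protein response. Promoter windows from RefSeq (GRCm38, 250 bases before to 50 after the annotated start) were found for 40 of the 50 genes. The ER stress element ERSE was searched on both strands as CCAAT followed after 9 bases of any kind by CCACG. It was present in 8 of the 40 members, or 20%, against 37 of 27025 genes, or 0.137%. By class it was found in 7 of 14 chaperone, folding and sensor promoters and in 0 of 10 translocon and signal peptidase promoters. Since chaperone genes are known targets of the unfolded protein response, these shares are a description and no independent finding. Of the called members, Sec61b, Sec61g, Ssr3, Ssr4 and Spcs1 had a window and no match, and Manf was not searched. The matches are shown because they belong to genes without a call. Capitals mark the fixed letters, each match is written 5′ to 3′ on the strand given, and Hsp90b1 held a pair of matches.
Hspa5, chr2:34772025-34772043, plus strand: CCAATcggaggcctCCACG
Hsp90b1, chr10:86705638-86705656, minus strand: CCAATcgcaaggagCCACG
Hsp90b1, chr10:86705533-86705551, plus strand: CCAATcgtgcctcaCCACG
Calr, chr8:84847075-84847093, plus strand: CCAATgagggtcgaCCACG
Canx, chr11:50325800-50325818, minus strand: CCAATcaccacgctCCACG
Pdia6, chr12:17266491-17266509, plus strand: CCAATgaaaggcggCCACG
Dnajc3, chr14:118937827-118937845, plus strand: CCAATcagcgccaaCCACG
Creld2, chr15:88819520-88819538, minus strand: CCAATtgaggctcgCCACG
Syvn1, chr19:6046532-6046550, plus strand: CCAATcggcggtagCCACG

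None of these 8 genes was called by edgeR in any of the comparisons. Of all genes, 10.6% were called in ODN against control and at most 2.47% in any other comparison. With only 8 genes, 0 calls cannot be told apart from those shares. The log2 fold changes of the 8 genes in ODN against control were -0.12 for Hspa5, -0.03 for Hsp90b1, -0.13 for Calr and 0.04 for Canx. They were 0.13 for Pdia6, 0.16 for Dnajc3, 0.30 for Creld2 and -0.17 for Syvn1. The variant ERSE-II, searched on both strands as ATTGG followed after 1 base by CCACG, was found in 3 members, Krtcap2, Dnajb11 and Herpud1, against 12 of 27025 genes, or 0.0444%. The core of the element bound by spliced Xbp1, TGACGTGG, was found in 0 of 40 windows, against 0.714% of all genes. A missing match says only that these letters are not in the window.

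**Figure D5:**
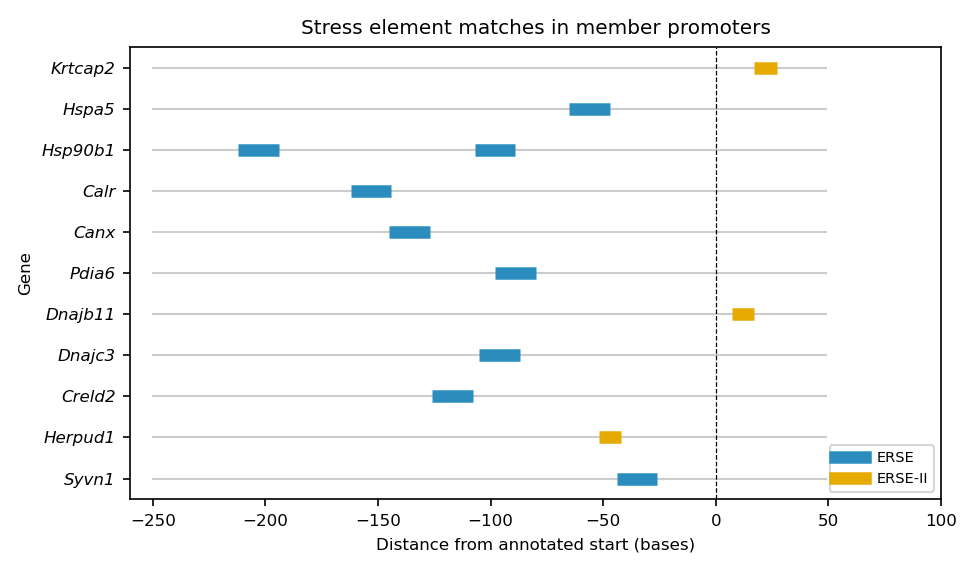
Position of ERSE and ERSE-II matches (bars) relative to the annotated start (horizontal axis, bases; 0 is the start) in the promoter windows of the 11 members that hold one. Windows run from 250 bases before the start to 50 after it, and the ERSE matches begin 44 to 212 bases before the start.

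The 150 bases before the RefSeq start are shown for Hspa5, which was not called and holds an ERSE in capitals, and for Sec61g and Ssr4, which were the most increased members and hold none. Each is written 5′ to 3′ on the strand of its gene.
Hspa5, chr2:34771940-34772089, plus strand: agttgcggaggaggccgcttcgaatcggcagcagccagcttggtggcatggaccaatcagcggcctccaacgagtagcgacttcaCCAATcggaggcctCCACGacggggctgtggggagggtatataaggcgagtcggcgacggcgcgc
Sec61g, chr11:16508485-16508634, minus strand: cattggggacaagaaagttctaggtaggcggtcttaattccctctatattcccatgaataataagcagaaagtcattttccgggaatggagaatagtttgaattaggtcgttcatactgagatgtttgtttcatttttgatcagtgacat
Ssr4, chrX:73786873-73787022, plus strand: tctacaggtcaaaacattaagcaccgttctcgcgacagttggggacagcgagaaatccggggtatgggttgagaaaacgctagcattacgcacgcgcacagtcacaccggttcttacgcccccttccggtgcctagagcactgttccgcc

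All 18 dividing-cell genes were called higher in ODN than in control, and their summed level ranged from 801 to 2825 CPM in ODN, against 301 to 534 CPM in control. By ODN replicate 1, 2 and 3 the sum was 2825, 1279 and 801 CPM, and the median log2 level of the 9 translocon genes relative to control was 0.54, 0.37 and 0.088 in the same libraries. In ODN+IM156 replicates 1, 2 and 3 the sum was 585, 932 and 820 CPM and the median 0.043, 0.16 and 0.085, so both measures ran in the same order there too. They did not in the other groups. In control, replicate 3 had the highest sum (534 CPM) and the lowest translocon median (-0.073), and in IM156, replicate 3 had the lowest sum (265 CPM) and the highest median (0.11). The sum was 265 to 355 CPM with IM156 alone. The part of dividing cells in the translocon values was not tested. Plasma cell markers, of which 13 of 14 were in the table, summed to 997 to 1275 CPM in ODN, against 1049 to 1162 CPM in control. Of the 10 tested, 5 had a positive log2 fold change in ODN against control, and the median was -0.027. Ly6c1 was the 1 called, higher in ODN (log2 fold change 2.12, adjusted p = 0.000488), with at most 8.23 CPM in an ODN library. Irf4 (-0.31, adjusted p = 0.073), Sdc1 (-0.59, adjusted p = 0.122), Prdm1 (-0.15, adjusted p = 0.834) and Jchain (0.02, adjusted p = 0.978) were not called.

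Markers of other cells differed as well. In ODN against control, called genes numbered 7 of 9 tested platelet genes, 4 of 11 macrophage genes, 2 of 3 neutrophil genes and 2 of 6 T and NK cell genes, all higher, and 5 of 8 erythroid genes, all lower. Summed platelet markers ranged from 133 to 226 CPM in ODN, against 45.6 to 67.5 CPM in control. Summed erythroid markers ranged from 107 to 255 CPM in ODN, against 679 to 872 CPM in control. Macrophage markers summed to at most 97.0 CPM in ODN, against at most 73.3 CPM in control, neutrophil markers to 89.3 against 9.64 CPM, and T and NK cell markers to 29.6 against 9.59 CPM. No marker in the table was at 0 in all 12 libraries. The part of these cells in the members' values was not tested.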

How the data were processed

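RNA was isolated with TRIzol and sequenced from the 3' end of transcripts (Lexogen QuantSeq), per the labels' protocols. The authors deposited raw counts per gene symbol for 12 libraries, and these counts were used as deposited. Per the submitters' processing notes the tools were Bowtie2, bedtools and edgeR with GRCm38 (mm10). Tool versions, annotation and strand rule are not given in the sources used here. The table's 12 columns of normalized values were not used. Of 23282 rows, 5883 had no count, and 35 symbols stood on more than 1 row, none of them a member.

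The tests used edgeR 4.0.16 (R 4.3.3) with TMM scaling and the default filterByExpr (11857 genes). A quasi-likelihood fit with 1 mean per group over all 12 libraries left 8 residual degrees of freedom. It was checked on simulated counts. Tests were two-sided and adjusted with Benjamini-Hochberg over all genes of a comparison, and genes were called below 0.05. Levels are CPM of the scaled library. Reads carry no molecular identifiers.

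Members and lists were chosen with earlier results of these data known. Named with values are all called members, 8 defining genes, up to 8 called pathway genes of smallest p in a comparison, and Xbp1. The intended protein table was not used here, so protein lengths come from GENCODE coding lengths. Alternatives were other scaling, DESeq2 1.42.0, other filters, a replicate block, a robust fit, a transcript length offset and leaving out libraries.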

Additional observations from a re-analysis of the deposited data

How the results depend on the processing

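The number of members called in ODN against control moved with the setting, as did the share of all genes called, given in brackets. It was 6 with DESeq2 (12.4%), with no filter on low counts (9.34%), with a robust fit (10.3%) and without Rn45s (10.6%). It was 5 with a transcript length offset (9.42%) and 4 with library totals in place of TMM factors (11.9%). When only these 2 groups were fitted it was 3 (5.23%, or 598 of 11437 genes). It lay between 4 (6.33%, without ODN replicate 1) and 10 (15.5%, without ODN replicate 3) when single libraries were left out. Library totals also moved the split over all genes to 695 higher and 720 lower, against 870 and 385, and the median of all genes to -0.074. In ODN+IM156 against ODN, DESeq2 gave 2 called members (373 of 11857 genes in all) and no filter gave 3 (664 of 17399), and leaving out libraries gave 0 to 7 (794 of 12083 at the highest). In the interaction, DESeq2 gave 1 (151 genes in all), no filter 2 (276), and leaving out libraries 0 to 3 (260 at the highest). In ODN+IM156 against IM156, fitting only these groups gave 2 (892 of 11492). The cause of these shifts was not tested. The class difference of 0.087 in IM156 against control lay between 0.0025 and 0.14 when single libraries were left out. That of -0.13 in ODN+IM156 against IM156 lay between -0.23 and -0.069 in the same settings. The coding length correlation of -0.547 was -0.43 with transcript length and -0.369 with the length offset.

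Among the genes named, fold changes turned sign only in comparisons in which the gene was not called. When single libraries were left out, the log2 fold changes in ODN against control ranged from -0.16 to 0.10 for Hsp90b1, from -0.28 to 0.073 for Calr and from -0.020 to 0.22 for Xbp1, and that of Spcs1 in ODN+IM156 against control from -0.099 to 0.083. Same-numbered libraries of different groups did not deviate together (18 pairs, correlations from -0.102 to 0.0758), so no pairing by number was seen. The check weighs low-count genes like all others and cannot exclude a pairing. A fit with the replicate number as a block called the same 6 members in ODN against control, with 9.74% of all genes called. That fit called 0 members in the other comparisons, with at most 2.46% of all genes called.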
